A study of Homo sapiens with 2 samples.

Results

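The genes described here build and control the epithelial cytoskeleton and its cell contacts: keratins, claudins and other tight junction proteins, the cadherin-catenin complex, desmosomes, and regulators that keep these genes on. They were chosen by name from a list of 41 symbols, of which 37 were found among the 23321 genes of the deposited table. NECTIN2 was found through its gene identifier, since the table gives it an older symbol, and CLDN2, CLDN3, KRT19 and ESRP1 were not analysed here. RNA was sequenced from AGS, an established gastric adenocarcinoma line, stably transfected with a negative control plasmid (AGS-ctrl, genotype WT) or with a GGT7 plasmid (AGS-GGT7, ectopic expression of a gamma-glutamyltransferase family member). Both were grown in DMEM with fetal bovine serum, and the labels give a time of 2 weeks for each. Each group held 1 library, so no difference between them could be set against replicate error, and none was given a p-value. The labels do not say whether the transfected lines were clones or pools.

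Keratins are intermediate filament proteins that assemble only as pairs of a type I and a type II chain, and in simple epithelia KRT8 with KRT18 is the founding pair. Claudins and occludin seal the space between neighbouring cells at tight junctions. E-cadherin (CDH1) and its catenins hold cells together at adherens junctions, and desmosomes tie the keratin filaments of neighbouring cells to each other through cadherins, plakoglobin (JUP), plakophilins and desmoplakin (DSP).

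The deposited counts summed to 13482913 for AGS-ctrl and 10289206 for AGS-GGT7. GGT7 itself had 90 counts in AGS-ctrl and 470 in AGS-GGT7, 1.78 and 12.2 FPKM (fragments scaled to gene length and library size), higher in the library labelled with it. The brackets after a fold hold its exact 95% interval, which covers counting error only. Of 17 stomach epithelium markers looked up, 9 were analysed and 3 reached 1 FPKM. These were MUC5AC, at 17.6 FPKM in AGS-ctrl and 16.3 in AGS-GGT7, MUC1, at 13.0 and 11.5, and GATA6, at 1.40 and 1.15. TFF1 and TFF2 had 5 counts or fewer in each library. Markers of other cell types were mostly low. The leukocyte antigen PTPRC had 5 counts in each library, the endothelial VWF 1 and 2, and the fibroblast gene DCN 8 and 5. The summed level of the 6 fibroblast markers analysed was 7.93 FPKM in AGS-ctrl and 6.24 in AGS-GGT7, mostly LUM and COL1A1. That of the 3 endothelial markers was 2.25 and 2.04, mostly CDH5 at 2.14 and 1.84. The 5 leukocyte markers summed to 1.57 and 6.80, since CD68, a lysosomal glycoprotein of macrophages, was at 1.11 and 6.08 FPKM. CD68 shares 1789 exonic bases with another annotated gene, and the part of this marker in the results was not tested.

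As a set, the keratin, claudin and junction genes stayed close to the control. Of the 37 genes, 28 reached 1 FPKM in the higher library, and 26 of these differed by under 1.5-fold, taken on the log2(FPKM + 1) scale. CLDN1 was the 1 gene past 1.5-fold higher, where 3.9% of all 14215 genes at this level were. KRT8 was the 1 gene past 1.5-fold lower, where the share of all genes was 4.97%. None of the 28 reached 2-fold, against 0.858% of all genes higher and 1.16% lower. By these rules of size, both shares among the 28 genes are therefore near the background. Their median log2 difference was 0.08, and that of all 14215 genes was -0.03. Counting error alone did not reach back to 1 in 10 of the 28 genes with a higher and 10 of the 28 with a lower level. Both shares were above the 19.6% and 25.4% of all genes. From 5 FPKM upward, where counting error is smaller, this held for 9 higher and 9 lower genes of 23. These shares too were above the 27.2% and 31.6% of all 6654 genes at that level. An interval narrows as counts rise, and the genes compared were not matched for counts. CLDN1 and KRT8 were again the genes past 1.5-fold there, where 3.76% of all genes were higher and 3.86% lower, and none of the 23 reached 2-fold, against 0.902% and 0.962%. Together the 37 genes took 0.602% of the control counts and 0.587% of the GGT7 counts.

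**Figure D1:**
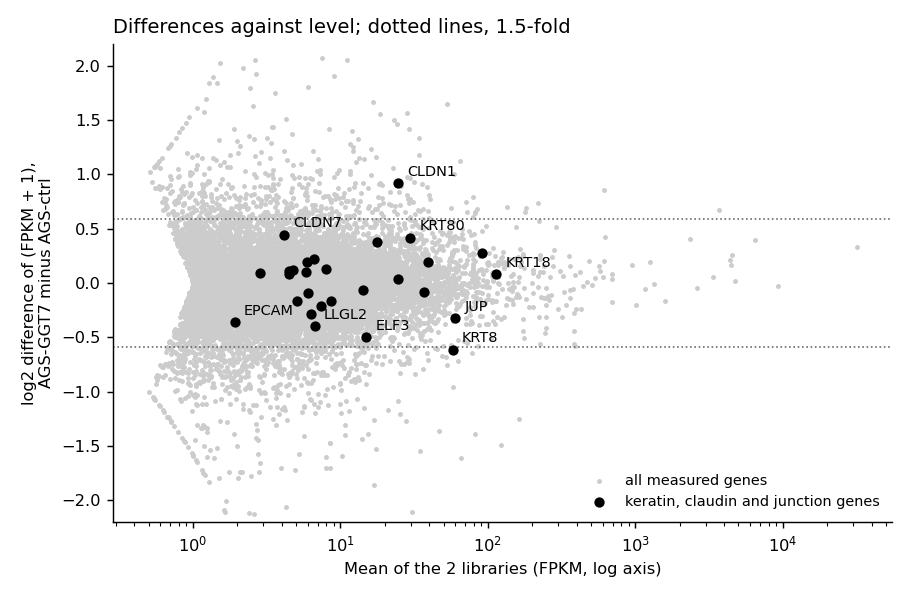
The log2 difference of (FPKM + 1), AGS-GGT7 minus AGS-ctrl, is plotted against the mean FPKM of the 2 libraries on a log axis, with the 28 genes at 1 FPKM or more in black, all measured genes in grey and 1.5-fold marked by dotted lines. CLDN1 lies above the upper line at 0.92 and KRT8 just below the lower one at -0.61, while the other black points fall within the grey cloud between the lines; 20 genes beyond 2.2 either way are outside the plot.

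Among the keratins, the members of the KRT8 and KRT18 pair parted. KRT8 had 13428 counts in AGS-ctrl and 6651 in AGS-GGT7, at 70.0 and 45.4 FPKM, which is 1.54-fold lower (1.496 to 1.59). On the log2(FPKM + 1) scale KRT8 stood at -0.61, and at -0.57 with upper quartile scaling or a pseudocount of 5, which is under 1.5-fold. In RNA from a whole culture, fewer cells with a transcript and less of it per cell cannot be told apart. KRT18 had 9870 and 7972 counts, at 111 and 117 FPKM, 1.06-fold higher (1.03 to 1.09). The type II keratins that can also pair with KRT18 stood on the other side of 1 from KRT8. KRT7 (chromosome 12, 52232520 to 52252186, plus strand), typical of simple and glandular epithelia, had 7638 and 7074 counts, at 82.9 and 101 FPKM, 1.21-fold higher (1.17 to 1.25). KRT80, a type II keratin found in many epithelia, was at 25.3 and 34.2 FPKM, 1.35-fold higher (1.28 to 1.42). KRT8 was thus the only measured keratin of the set that was lower in AGS-GGT7. KRT10, a type I keratin of differentiated epidermis, had 157 and 140 counts and an interval that held 1 (0.924 to 1.48). KRT81, a hair keratin, had 9 and 12 counts and shares sequence with KRT86, so its value is uncertain.

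A ratio of counts within each library does not depend on how the libraries are scaled. The KRT8 to KRT18 ratio was 1.36 in AGS-ctrl and 0.834 in AGS-GGT7, a 1.63-fold difference (1.56 to 1.70). The KRT8 to KRT7 ratio went from 1.76 to 0.9402, a 1.87-fold difference (1.79 to 1.95). The pairs were picked with the values of the genes known. Summed over the chain types the keratin levels differed little: the 4 type II genes of the set came to 178 FPKM in AGS-ctrl and 181 in AGS-GGT7, and the 2 type I genes to 116 and 124. With the longest coding transcript of each gene as its length the type II sum was 792 and 739 on the same kind of scale.

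**Figure D2:**
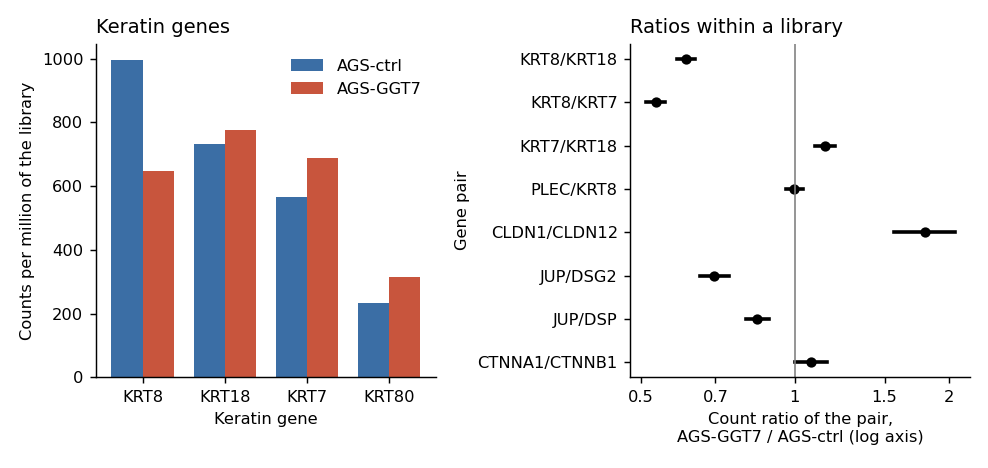
Left, library-scaled counts (CPM) of 4 keratin genes in AGS-ctrl (blue) and AGS-GGT7 (red); right, how the count ratio of a gene pair within a library differed between the libraries (AGS-GGT7 over AGS-ctrl, log axis, bars are exact 95% intervals of counting error). KRT8 goes from 996 to 646 CPM while the other 3 are level or higher, and the ratios of KRT8 to KRT18 and to KRT7 lie at 0.613 and 0.535, left of 1.

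The order of the keratin levels depends on the length assigned to each gene. The deposited FPKM of KRT8 corresponds to a length of 14236 bases, whereas its annotated exons cover 6881 and its longest coding transcript 2437. In FPKM the order was KRT18, KRT7, KRT8 and KRT80 in both libraries. Per longest coding transcript KRT18 stood at 432 in AGS-ctrl, KRT8 at 409 and KRT7 at 323. In the GGT7 library these values were 457, 265 and 392, so KRT8 and KRT7 changed places on that scale. The ratio of each gene between the libraries is the same on both scales.

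KRT8 (ENSG00000170421, GRCh38 chromosome 12, 52897187 to 52949954, minus strand) and KRT18 (ENSG00000111057, 52948871 to 52952901, plus strand) are neighbours on opposite strands and share 525 exonic bases in the annotation, 7.63% of the exonic length of KRT8 and 16.3% of that of KRT18. No source used here gives the strand setting of the counting, so reads in the shared bases cannot be assigned to either. Both genes also have many processed pseudogenes, which can take their reads. The table held 14 KRT8 pseudogenes with 739 counts in AGS-ctrl and 508 in AGS-GGT7, 5.22% and 7.10% of the summed counts of KRT8 and these copies. Adding them to KRT8 gave 1.51-fold lower (1.47 to 1.55), or -0.58 on the log2(FPKM + 1) scale, at the limit of 1.5-fold. The 19 KRT18 pseudogenes had 373 and 181 counts, and with them KRT18 was 1.04-fold higher (1.01 to 1.07).

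**Figure D3:**
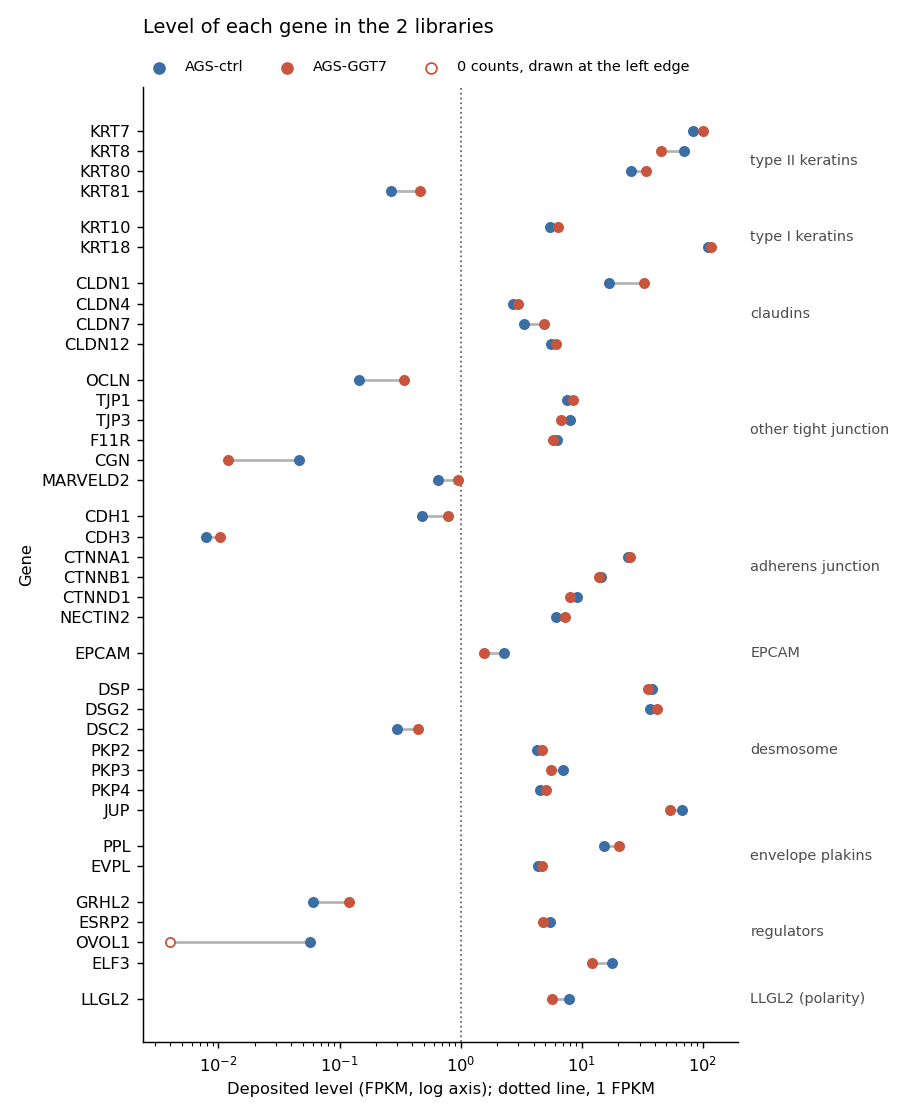
Deposited FPKM of the 37 genes (log axis) in AGS-ctrl (blue) and AGS-GGT7 (red), grouped by role, with 1 FPKM as a dotted line and a value of 0 counts drawn open at the left edge. Keratins and desmosome genes take the highest levels, up to 117 FPKM for KRT18, while CDH1, CDH3, OCLN, CGN, MARVELD2, DSC2, GRHL2, OVOL1 and KRT81 stay left of the line in both libraries.

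All 4 claudins analysed had a higher level in AGS-GGT7, as did 6430 of all 14215 genes. CLDN1 and CLDN7 had an interval above 1, as did 19.6% of all genes. CLDN1, a sealing claudin of many epithelia, had 866 counts in AGS-ctrl and 1286 in AGS-GGT7, at 16.8 and 32.6 FPKM, 1.95-fold higher (1.78 to 2.12). The difference of CLDN1 ranked 153 from the top among the 14215 genes. CLDN7, which also acts along the lateral membrane, had 294 and 330 counts, at 3.34 and 4.91 FPKM, 1.47-fold higher (1.25 to 1.73). CLDN4, a barrier claudin of tight epithelia, was at 2.71 and 2.96 FPKM with an interval from 0.945 to 1.27. CLDN12, an atypical claudin, was at 5.61 and 6.08 FPKM with an interval from 0.976 to 1.20, and it overlaps several annotated genes. CLDN1 was thus the most abundant claudin of the set in both libraries. Its count ratio to CLDN12 went from 1.07 to 1.93, a 1.80-fold difference (1.57 to 2.06).

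CLDN1 (ENSG00000163347, GRCh38 chromosome 3, 190305701 to 190322475, minus strand) is shown with CLDN4 by the 250 bases before the RefSeq gene start (GRCh38.p14), to set the claudin with the highest ratio beside another whose interval held 1. Capitals mark GGGCGG on either strand, the core of sites bound by SP1-type factors. The CLDN1 window is chr3:190322447-190322696, minus strand, and the CLDN4 window chr7:73830746-73830995, plus strand:
CLDN1: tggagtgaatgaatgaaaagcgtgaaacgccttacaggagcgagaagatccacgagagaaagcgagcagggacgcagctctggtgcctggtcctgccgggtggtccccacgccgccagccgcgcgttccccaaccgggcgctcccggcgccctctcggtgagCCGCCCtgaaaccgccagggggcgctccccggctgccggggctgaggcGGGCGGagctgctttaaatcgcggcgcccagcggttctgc
CLDN4: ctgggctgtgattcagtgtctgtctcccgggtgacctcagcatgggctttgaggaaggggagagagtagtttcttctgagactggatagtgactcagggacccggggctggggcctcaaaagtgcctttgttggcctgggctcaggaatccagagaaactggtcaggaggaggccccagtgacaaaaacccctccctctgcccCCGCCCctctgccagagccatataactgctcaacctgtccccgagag
The CLDN4 window lies inside the GENCODE span of the gene (73799542 to 73832693), so it is not upstream of every annotated transcript. The CLDN1 window holds GGGCGG 2 times and has 68.8% G and C, and the CLDN4 window holds it 1 time with 58.8%. GGGCGG occurs in 42.6% of all 35116 RefSeq windows of the same length and in 53.7% of those of coding genes. In the 32 windows found for 20 genes of the set it occurs in 22 (68.75%).

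The other tight junction genes of the set went both ways, and those at 1 FPKM or more stayed within 1.5-fold. TJP1, the scaffold ZO-1, had 1906 and 1612 counts, at 7.59 and 8.41 FPKM, 1.11-fold higher (1.04 to 1.18). TJP3, the related scaffold ZO-3, was at 7.99 and 6.74 FPKM, 1.19-fold lower (1.05 to 1.34). F11R, the junctional adhesion molecule JAM-A, was at 6.22 and 5.795 FPKM with an interval from 0.818 to 1.06. F11R shares 1853 exonic bases with an overlapping gene on the same strand. Below 1 FPKM stood OCLN (occludin) with 15 and 27 counts, MARVELD2 (tricellulin, of contacts between 3 cells) with 65 and 73, and CGN (cingulin) with 5 and 1. On these few counts OCLN was 2.36-fold higher (1.21 to 4.77) and MARVELD2 1.47-fold higher (1.04 to 2.09).

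At the adherens junction the deposited FPKM of the catenins was far above that of CDH1, though levels of different genes compare only roughly. CDH1, E-cadherin, had 94 counts in AGS-ctrl and 116 in AGS-GGT7, 0.482 and 0.779 FPKM, 1.62-fold higher (1.22 to 2.15). CDH3, P-cadherin, had 1 count in each. CTNNA1, alpha-catenin, was at 24.3 and 24.9 FPKM with an interval from 0.990 to 1.06. CTNNB1, beta-catenin, was at 14.5 and 13.8 FPKM with an interval from 0.897 to 1.01. Scaled by the summed counts, neither of these catenins therefore differed beyond counting error. The CTNNA1 to CTNNB1 count ratio, which needs no scaling, went from 2.84 to 3.05, a 1.08-fold difference (1.001 to 1.16). CTNND1, the p120 catenin that stabilises cadherins at the membrane, was at 9.16 and 8.04 FPKM, 1.14-fold lower (1.06 to 1.22). NECTIN2, an immunoglobulin-like adhesion molecule, was at 6.07 and 7.22 FPKM, 1.19-fold higher (1.04 to 1.36). The neural-type cadherin CDH2 was at 6.78 and 6.12 FPKM with an interval from 0.793 to 1.03, so in both libraries its FPKM was above that of CDH1. EPCAM, the epithelial cell adhesion molecule, had 132 and 69 counts, at 2.29 and 1.57 FPKM, 1.46-fold lower (1.08 to 1.98).

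Desmosome genes were among the most abundant of the set and went both ways. JUP (plakoglobin, chromosome 17, 41754604 to 41786931, minus strand), which serves desmosomes and adherens junctions, had 6832 and 4153 counts, at 67.1 and 53.4 FPKM, 1.26-fold lower (1.21 to 1.31). DSP, desmoplakin, the link to keratin filaments, was at 37.6 and 35.5 FPKM, 1.06-fold lower (1.024 to 1.10). DSG2, the desmoglein of simple epithelia, was at 36.5 and 41.7 FPKM, 1.14-fold higher (1.09 to 1.20). The ratio of JUP to DSG2 thus went from 2.16 to 1.503, a 1.44-fold difference (1.35 to 1.53). Of the plakophilins, which cluster desmosomal proteins, PKP3 was 1.26-fold lower (1.12 to 1.42), at 7.05 and 5.60 FPKM. PKP4 was 1.11-fold higher (1.01 to 1.21), and the interval of PKP2 held 1 (0.977 to 1.24). DSC2, the desmocollin partner of DSG2, had 59 and 67 counts and stayed below 1 FPKM. The plakins of the cornified envelope did not share the direction of DSP. PPL, periplakin, was at 15.3 and 20.2 FPKM, 1.32-fold higher (1.25 to 1.39), and EVPL, envoplakin, was at 4.35 and 4.66 FPKM with an interval from 0.971 to 1.18.

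**Figure D4:**
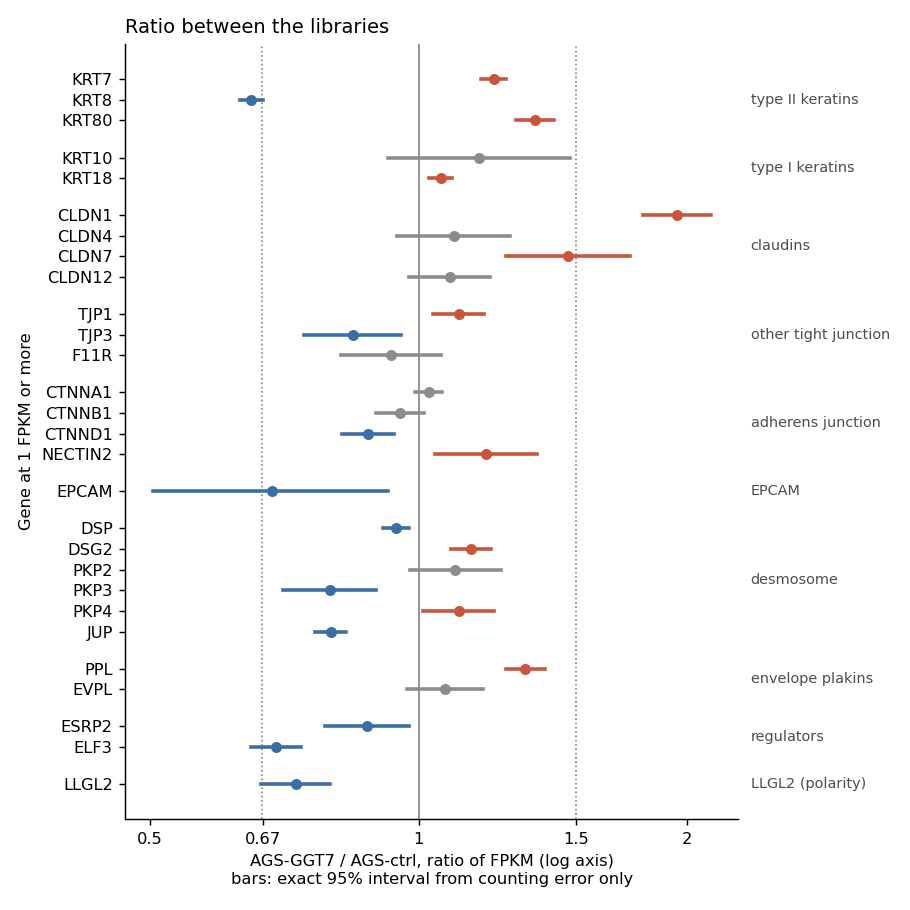
Ratio of FPKM, AGS-GGT7 over AGS-ctrl, on a log axis for the 28 genes at 1 FPKM or more, with exact 95% intervals of counting error; intervals above 1 are red, below 1 blue, and those that hold 1 grey, and dotted lines mark 1.5-fold. There are 10 red and 10 blue intervals: all claudin ratios lie right of 1, those of ELF3, ESRP2, LLGL2 and EPCAM left of it, and desmosome and adherens junction ratios on both sides.

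Of the regulators of epithelial identity in the set, ELF3 and ESRP2 reached 1 FPKM, and both had an interval below 1, as did 25.4% of all genes. ELF3 (chromosome 1, 202007945 to 202017188, plus strand), an ETS transcription factor of epithelia, had 2753 and 1453 counts, at 17.7 and 12.2 FPKM, 1.45-fold lower (1.36 to 1.54). ELF3 shares exonic bases with an antisense gene, at 165 and 147 counts, and with a transcript in its own direction, at 173 and 41. ESRP2, which promotes epithelial splice forms, was at 5.42 and 4.74 FPKM, 1.14-fold lower (1.03 to 1.27). LLGL2, a polarity protein of the basolateral membrane, had 1371 and 762 counts, at 7.78 and 5.66 FPKM, 1.37-fold lower (1.26 to 1.502). GRHL2, a grainyhead-like factor that activates CDH1 and claudin genes, had 6 and 9 counts. OVOL1, a zinc finger repressor of mesenchymal genes, had 4 counts in AGS-ctrl and 0 in AGS-GGT7, where a count of 0 allows up to 3. The level of GRHL2 was thus too low for a comparison at this depth, and ELF3, ESRP2 and LLGL2 stayed within 1.5-fold.

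The ELF3 window, 250 bases before its RefSeq start (GRCh38.p14 chr1:202010337-202010586, plus strand), is given because ELF3 had the largest difference of the regulators. This window lies inside the GENCODE span of the gene, which starts at 202007945, so it is not upstream of every annotated transcript. Capitals mark the E-box CAGGTG on either strand, a motif bound by SNAI and ZEB repressors of epithelial genes, and the TATA motif TATAAA:
ELF3: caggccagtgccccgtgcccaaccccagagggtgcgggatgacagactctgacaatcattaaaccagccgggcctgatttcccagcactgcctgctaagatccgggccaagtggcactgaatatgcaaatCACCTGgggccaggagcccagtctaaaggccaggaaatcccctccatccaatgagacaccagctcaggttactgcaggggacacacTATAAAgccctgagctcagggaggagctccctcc
The E-box was found in 10 of the 32 RefSeq windows of 20 genes of the set (31.25%) and in 17.5% of all 35116 windows. A higher share in the set was not particular to it, since GGGCGG was at 68.75% against 42.6%. TATAAA was in 2 of the 32 windows (6.25%) and in 10.7% of all. The other genes of the set, CDH1, EPCAM, KRT7 and KRT18 among them, had no window here and were not searched. The carriers of the E-box were CLDN7, DSC2, DSG2, DSP, ELF3, JUP, OCLN, TJP1 and TJP3. CLDN7, DSG2 and TJP1 were higher in AGS-GGT7, and ELF3, JUP, TJP3 and DSP were lower. DSC2 and OCLN were under 1 FPKM. Whether the E-box had a part in these levels was not tested. The CLDN1 and CLDN4 windows did not hold it.

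Related genes outside the set gave a similar picture. Of 157 other keratin, claudin, junction and epithelial regulator genes looked up, 83 were analysed and 53 reached 1 FPKM. Of these 53, CLDND1 and MARVELD1 were past 1.5-fold higher and PLEC past 1.5-fold lower, beside 3.9% and 4.97% of all genes, and the median log2 difference was 0.04. PLEC, plectin, which links keratin filaments to hemidesmosomes and other cytoskeletal fibres, had 23130 and 11441 counts, at 54.4 and 35.3 FPKM, 1.54-fold lower (1.51 to 1.58). Its count ratio to KRT8, likewise 1.54-fold lower, was 1.72 in both libraries, which restates these folds. This pair too was picked with the values known. KRT17, a type I keratin of stressed and basal epithelia, had 1304 and 710 counts, at 17.4 and 12.4 FPKM, 1.40-fold lower (1.28 to 1.54). The hemidesmosome integrins stood on the other side: ITGA6 was 1.42-fold higher (1.35 to 1.49) and its partner ITGB4 1.39-fold higher (1.33 to 1.45). ITGA3, a laminin receptor of the basal surface, was at 21.9 and 32.2 FPKM, 1.47-fold higher (1.42 to 1.53).

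In the list of tight junction and polarity genes 20 of 21 differed by under 1.5-fold with 1 FPKM added, and 1 was past it and higher, beside 3.9% of all genes. MARVELD1, a membrane protein of the occludin-related MARVEL family, was at 6.59 and 10.6 FPKM, 1.61-fold higher (1.42 to 1.83). MAGI3, a junction scaffold, was at 5.96 and 3.93 FPKM, 1.51-fold lower (1.34 to 1.71). LSR, a receptor of contacts between 3 cells, had 136 and 66 counts, 1.57-fold lower (1.16 to 2.14). MAGI3 and LSR stayed within 1.5-fold only on the log2(FPKM + 1) scale. All 12 measured genes of the adherens junction list lay within 1.5-fold, and the highest ratio among those reaching 5 FPKM was that of AJUBA, a LIM protein, 1.44-fold higher (1.33 to 1.57). So did all 9 measured genes of the other epithelial regulators, where 3.9% and 4.97% of all genes were past 1.5-fold higher and lower. The interval lay above 1 in 2 of the 9 and below 1 in 2, beside 19.6% and 25.4% of all genes. KLF5, a Krüppel-like factor of gut epithelium, was the highest of these regulators, at 56.3 and 75.2 FPKM, 1.34-fold higher (1.29 to 1.39). GRHL1, a relative of GRHL2, had 171 and 173 counts, 1.33-fold higher (1.07 to 1.65). TFAP2A, an AP-2 factor of ectodermal epithelia, had 1947 and 1485 counts and an interval from 0.934 to 1.07. The membrane protease ST14 was at 4.27 and 3.04 FPKM, 1.41-fold lower (1.15 to 1.72), and KLF4, a factor of differentiated epithelia, had 160 and 88 counts, 1.39-fold lower (1.06 to 1.82).

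Repressors of epithelial genes and mesenchymal counterparts went both ways. Of 7 measured genes, 6 differed by under 1.5-fold on the log2(FPKM + 1) scale, with a median of -0.02. Past 1.5-fold on this scale were 3.9% of all genes higher and 4.97% lower. ZEB1, at 3.38 and 3.59 FPKM, and the mesenchymal filament gene VIM, at 39.6 and 39.2 FPKM, had intervals that held 1. SNAI2 had 89 and 113 counts, 1.66-fold higher (1.25 to 2.22), which the added 1 FPKM brings under 1.5-fold on the log2 scale. ZEB2, under 1 FPKM, had 272 and 330 counts, 1.59-fold higher (1.35 to 1.87). SNAI1 had 88 and 59, with an interval from 0.621 to 1.24. FN1, fibronectin, was the gene past 1.5-fold lower on that scale, at 1.61 and 0.493 FPKM, 3.27-fold lower (2.74 to 3.92). TWIST2 was at 10.8 and 10.9 FPKM.

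**Figure D5:**
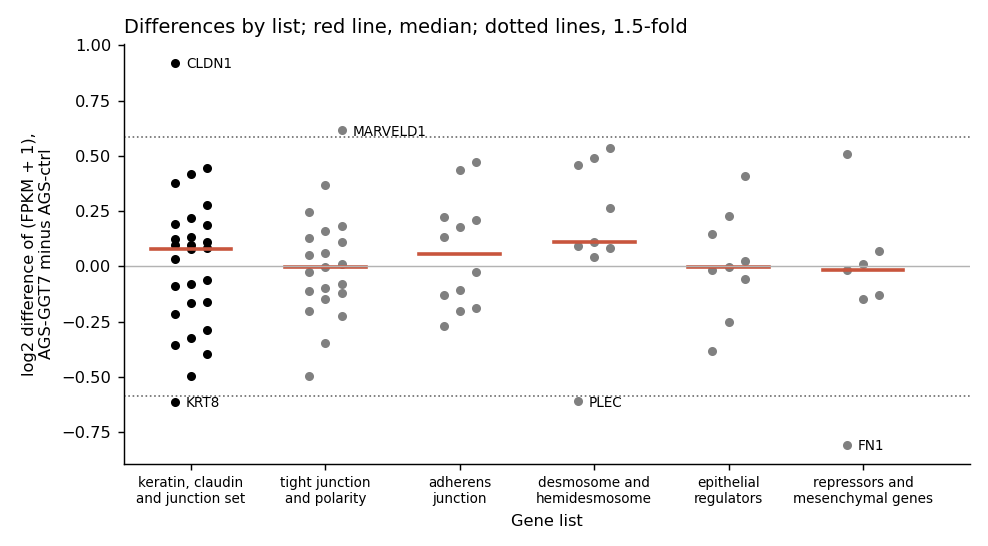
Each point is a gene at 1 FPKM or more, plotted by its log2 difference of (FPKM + 1), AGS-GGT7 minus AGS-ctrl, for the 28 genes of the set (black) and 5 related lists (grey), with the median of each list as a red line and 1.5-fold as dotted lines. The medians lie between -0.02 and 0.11, and the points past the dotted lines are CLDN1, KRT8, MARVELD1, PLEC and FN1.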

How the data were processed

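RNA of 2 AGS libraries, 1 per group as the sample labels give it, was sequenced from standard Illumina libraries, per the labels' protocols. The submitters' processing notes list HISAT2, StringTie 1.3.0, edgeR and GRCh38 without saying what each was used for. No source used here names the annotation, the counting tool or whether strand was used. The authors deposited 1 table of estimated counts per gene, whole numbers apart from a broken record, per the file headers and values. The FPKM of each gene, likewise made by the authors, stand beside them, per the file headers. Of 23378 lines, 2 were left out, which hold 1 gene's record broken across them. Dates had replaced 23 symbols, which were restored from the gene ID with GENCODE names. Rows sharing a symbol were summed, leaving 23321 genes. The deposited FPKM corresponds to a gene length with a median of 1.54 times the GENCODE 29 exonic length over 11714 genes, so levels of different genes compare only roughly; length cancels in the ratio of 1 gene between libraries.

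The difference of a gene is log2((AGS-GGT7 FPKM + 1)/(AGS-ctrl FPKM + 1)), which understates low genes; folds are ratios of FPKM. A gene counts as measured from 1 FPKM in its higher library, and 1.5-fold is the rule of size. Each 95% interval is the exact conditional (Clopper-Pearson) one for a count ratio, or of the odds ratio for a gene pair; without molecular identifiers, reads may repeat a molecule, so they cover counting error only. The calculations were tested on simulated data. With 1 library per group no test of groups was run. The genes of the set and the related lists were chosen with earlier results of these data known. Named are GGT7, the genes of the set and, of each related list, the gene with the largest difference each way among those reaching 5 FPKM, of which 1 gene is not reported here; CLDND1, ITGA6, ITGB4, ST14, GRHL1, KLF4, LSR, ZEB1, ZEB2, VIM, SNAI1, SNAI2 and FN1 and the markers were named after their values were seen. Positions, overlaps of at least 100 exonic bases and transcripts came from GENCODE 29, copies from BLAST 2.17.0, and promoter windows from RefSeq (GRCh38.p14). Of the 28 measured genes, 15 had no overlapping gene and no copy. Alternatives used edgeR 4.0.16 (TMM, upper quartile) and DESeq2 1.42.0 size factors, pseudocounts of 0.1 and 5, other filters, rows as deposited and a 2-fold rule. Counts with pseudogenes added, other gene lengths and genes without overlaps or copies were chosen after seeing the data. Software was R 4.3.3 and Python 3.11.15 with scipy 1.17.1, pandas 2.3.3, numpy 2.4.6 and matplotlib 3.10.9.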

Additional observations from a re-analysis of the deposited data

How the results depend on the processing

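CLDN1 stayed past 1.5-fold higher under every scaling, pseudocount and filter tried, and under the 2-fold rule no gene of the set was past it (0 higher and 0 lower). The call of KRT8 is close to the limit: with a pseudocount of 5 or upper quartile scaling the number of genes past 1.5-fold lower was 0, with KRT8 at -0.57 on the log2 scale in both cases against -0.61. It was also 0 when genes with an overlapping gene or a copy were left out, which removes KRT8 itself. None of the 28 measured genes changed direction under the pseudocounts of 0.1 and 5 or the TMM, DESeq2 and upper quartile scalings. These scalings shifted all genes by 0.01 to 0.04. The counting intervals use the summed counts as scale and were not recomputed under these scalings. Those that end near 1, such as that of DSP, may therefore depend on the scaling. The median log2 difference of the set ranged from 0.04 (at least 5 FPKM) to 0.12 (upper quartile). The type II to type I ratio of the summed keratin levels was 1.53 in AGS-ctrl and 1.46 in AGS-GGT7. It was 1.32 and 1.31 over all keratin genes analysed and 1.81 and 1.60 with the longest coding transcript as length. No paired analysis was possible because each group has 1 library. Depth limits the genes under 1 FPKM, several of which rest on fewer than 10 counts.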
